A study of Mus musculus with 2 samples.

Results

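The clustered protocadherin genes form 3 tandem arrays, alpha, beta and gamma, on mouse chromosome 18. Members were the protein-coding records of the RefSeq gene table whose symbol starts with Pcdha, Pcdhb or Pcdhg. There were 57 of them among 21631 protein-coding records, of which 14 were alpha, 22 beta and 21 gamma genes. Loops were counted where an anchor lay in the window from 36700000 to 38100000 on chromosome 18 (mm10), and 8 of 4982 loops met this rule. A loop is a pair of intervals, its anchors, that the authors' caller listed as a contact peak. Contacts were measured by Micro-C, in which micrococcal nuclease cuts crosslinked chromatin before its ends are ligated. The material was V6.5, a male mouse embryonic stem cell line, transfected with the control reagent siGLO at 50 nM and collected after 48 hours. The 2 samples formed 1 group, siControl, and were represented by 1 loop list without values per sample. No replicate error could therefore be attached to any value, no difference below was tested, and the read depth is unknown.

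Clustered protocadherins are cell-surface adhesion proteins of the cadherin superfamily. Individual neurons express few of the alternate isoforms, and these serve as labels by which a neuron tells its own branches from those of other neurons. Each alpha or gamma gene contributes a variable first exon with its own promoter, which is spliced to constant exons shared by its cluster. Beta genes consist of a variable exon alone. CTCF, a DNA-binding protein that stops loop extrusion, and cohesin, the ring complex that forms loops, are known to bind many of these promoters and the distant enhancers of the clusters. Those enhancers are known to include sites past the alpha constant exons and past the gamma constant exons. The files give no enhancer positions, so whether an anchor holds an enhancer was not examined.

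The gene records carried this layout. The alpha records ran from 36930285 to 37188897 on chromosome 18 (258.6 kb), the beta records from 37264998 to 37521419 (256.4 kb) and the gamma records from 37661775 to 37841873 (180.1 kb). The 14 alpha records ended between 37187657 and 37188897, and the 21 gamma records between 37841863 and 37841873, as genes that share constant exons do. The lower-coordinate end of an alpha or gamma record is thus the side of its variable exon. The 22 beta records had 22 separate upper ends. Lower ends followed each other at a median distance of 7.44 kb in alpha, 7.84 kb in beta and 5.37 kb in gamma. Anchors were 5 or 10 kb wide, so a single anchor could hold the ends of neighbouring genes and does not choose between them.

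Of the loops, 3 had an anchor in the beta cluster, all at its far end, 3 had one in the gamma cluster and 1 had one in the alpha cluster. The lower ends of all 21 gamma genes were enclosed by loops, and 1 loop alone passed over all of them. Most beta genes were not enclosed. The share of all genes enclosed by a loop was not calculated, so neither is read as particular to a cluster. Of the 8 loops, 5 had an anchor inside a cluster and 3 lay in the flanks. No listed loop joined the alpha cluster to the beta or the gamma cluster. That count of 0 rests on 8 loops, of which 1 had an alpha anchor and 3 had no anchor in a cluster. Loops are not replicates, so no limit on the share of such joins was drawn from it. Loops joined beta to gamma genes in 2 cases. The other 3 loops of the clusters each ran from a variable gene to a site outside all 3 clusters, at higher coordinates. No loop of the list passed over the whole window with both anchors outside it.

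**Figure D1:**
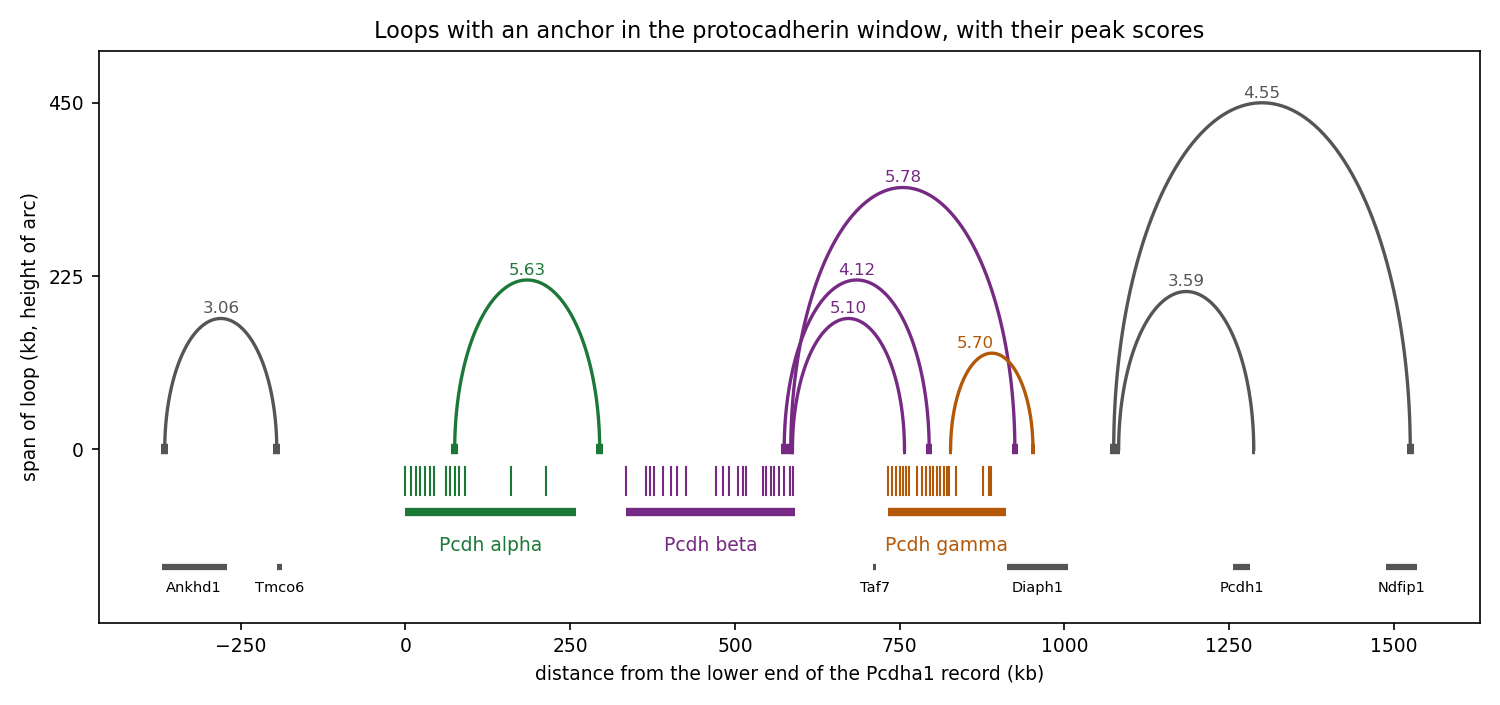
Loops with an anchor in the window, drawn as arcs whose height is their span in kb, over distance in kb from the lower end of Pcdha1, with the peak score of each loop above its arc. Ticks mark the lower ends of the 57 genes, horizontal bars the clusters and chosen neighbouring genes, and thick segments at the base the anchors. The 3 loops from the end of the beta cluster fan out over the gamma cluster, while the 1 alpha loop stands alone.

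In the alpha cluster, Pcdha10, an alternate isoform gene, was the single member with an end at an anchor. Its lower end, at 37005320, lay 4680 bp inside the anchor from 37000001 to 37010000. The partner anchor, from 37220001 to 37230000, lay 31.1 kb above the last base of the alpha records and 35.0 kb below Pcdhb1, the first beta gene, and held no protein-coding gene end. The loop spanned 220 kb and was listed at 10 kb pixels, the bin size of the contact map at which the caller found it. Its peak score, a unitless score of the authors' caller that serves here to rank loops within the list, was 5.63. This stood at percentile 89.99 of loops of the same pixel size. The value of its peak pixel, 10.98 in the unstated units of the authors' contact map, was at percentile 97.6. The loop was thus high in the list by both measures. Between its anchors lay the lower ends of 4 genes, the alternate genes Pcdha11 and Pcdha12 and the C-type genes Pcdhac1 and Pcdhac2, together with the upper ends of the alpha records. C-type genes are isoform genes next to the constant exons that are expressed more broadly than the alternate ones. The lower ends of Pcdha1 to Pcdha10 were outside the span between the anchors. Pcdha11 missed the anchor by 858 bp and Pcdha9 by 2121 bp, less than the width of a pixel.

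In the beta cluster, anchors were found at its far end alone, next to the gamma cluster. The anchor from 37500001 to 37510000 held the upper end of Pcdhb19 and the whole record of Pcdhb20. The adjoining anchor, from 37510001 to 37520000, held the whole record of Pcdhb21 and the lower end of Pcdhb22. The other 18 genes, Pcdhb1 to Pcdhb18, had no end at an anchor. A stretch of 270 kb between the anchor past the alpha cluster and the anchor of Pcdhb19 and Pcdhb20 held no anchor. Pcdhb8, in the middle of the array, lay farthest from any anchor of all 57 genes, at 125.3 kb. The lower ends of 20 of the 22 beta genes were enclosed by no loop.

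From this end of the beta cluster, 3 loops ran toward higher coordinates. Pcdhb21 and Pcdhb22 took part in 2 of them. The first, of 5 kb pixels, began at 37515001 to 37520000, an interval with the upper end of Pcdhb21 and the lower end of Pcdhb22. Its partner interval, from 37685001 to 37690000, held the lower ends of Pcdhga4 and Pcdhgb2. The loop spanned 170 kb, with a peak score of 5.10 (percentile 56.8) and a peak pixel of 4.60 (percentile 38.6). Its peak score was thus near the middle of loops of 5 kb pixels, while it was above the upper quartile of the whole list (4.999), in which pixel sizes are mixed. The second, of 10 kb pixels, joined the interval from 37510001 to 37520000 to the interval from 37850001 to 37860000. That partner lay 8.13 kb above the last base of the gamma records, inside the record of Diaph1, which encodes a formin that assembles actin filaments. This loop spanned 340 kb, the longest of the 5, and had the highest peak score of the 8, 5.78 (percentile 91.5), but a peak pixel of 6.41 below the median (percentile 42.0). It passed over the lower ends of all 21 gamma genes. Pcdhb19 and Pcdhb20 had the remaining loop, of 10 kb pixels, to the interval from 37720001 to 37730000 with the lower ends of Pcdhgb4 and Pcdhga8. It spanned 220 kb, with a peak score of 4.12 (percentile 56.0) and a peak pixel of 7.19 (percentile 60.7). The merged anchor of Pcdhb21 and Pcdhb22 was the 1 of 12 merged anchors in the window with more than 1 loop, against 12.1% of 8740 merged anchors in the whole list.

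The 3 fanning loops enclosed Slc25a2, a mitochondrial carrier of amino acids, and Taf7, a subunit of the general transcription factor TFIID. These genes lie between the beta and the gamma cluster, and neither overlapped an anchor. The loop to Pcdhga4 and Pcdhgb2 was nested both in the loop to Diaph1 and in the loop to Pcdhgb4 and Pcdhga8. The loop to Pcdhgb4 and Pcdhga8 started 1 bin lower than the Diaph1 loop, and its anchors alternated with those of the Diaph1 loop.

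In the gamma cluster, 5 of 21 genes had an end at an anchor, and each by its lower end. They were Pcdhga4, Pcdhga8 and Pcdhga11 of the 12 gamma A genes and Pcdhgb2 and Pcdhgb4 of the 6 gamma B genes. Pcdhga4 and Pcdhgb2 lay 236 and 141 bp inside the edges of their anchor, and Pcdhgb4 375 bp inside the edge of its own. Of the genes that missed, Pcdhgb5 lay nearest, at 971 bp, followed by Pcdhgb7 at 3382 bp, Pcdhga5 at 4375 bp and Pcdhgb1 at 4729 bp. The difference between genes inside and just outside was thus smaller than a pixel. Pcdhga11 was the lower end of a separate loop of 5 kb pixels, from 37755001 to 37760000 to a site from 37880001 to 37885000. The partner lay 38.13 kb above the gamma records, again inside Diaph1. The loop spanned 125 kb, the shortest of the 8, with a peak score of 5.70 (percentile 73.3) and a peak pixel of 5.60 (percentile 69.6). It passed over Pcdhga12 and the 3 C-type genes Pcdhgc3, Pcdhgc4 and Pcdhgc5. Its anchors alternated with those of the loop between Pcdhb21 and Diaph1, whose partner anchor lay 20 kb lower in the same gene.

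The lower end of every gamma gene lay under at least 1 loop, as the loop from Pcdhb21 and Pcdhb22 to Diaph1 passed over all of them. The lower ends of Pcdhga1, Pcdhga2, Pcdhga3 and Pcdhgb1 were enclosed by 3 loops, those of 9 genes by 2 and those of 8 genes by 1. In alpha 4 of 14 and in beta 2 of 22 lower ends were enclosed, each by a single loop. No share of all genes enclosed by a loop was calculated to set beside these counts. The median distance of a lower end to the nearest anchor was 5.58 kb in gamma, 36.1 kb in alpha and 60.9 kb in beta. None of the 5 C-type genes of alpha and gamma had an end at an anchor, against 9.04% of all protein-coding genes. With 5 genes this count is not read as a trait of the C-type. Pcdhgc5 was nearest, at 30455 bp, and Pcdhac1 farthest, at 80136 bp. The shared upper ends were not in an anchor either. They lay 31.1 to 32.3 kb from the nearest anchor in alpha and 8.13 to 8.14 kb from it in gamma.

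**Figure D2:**
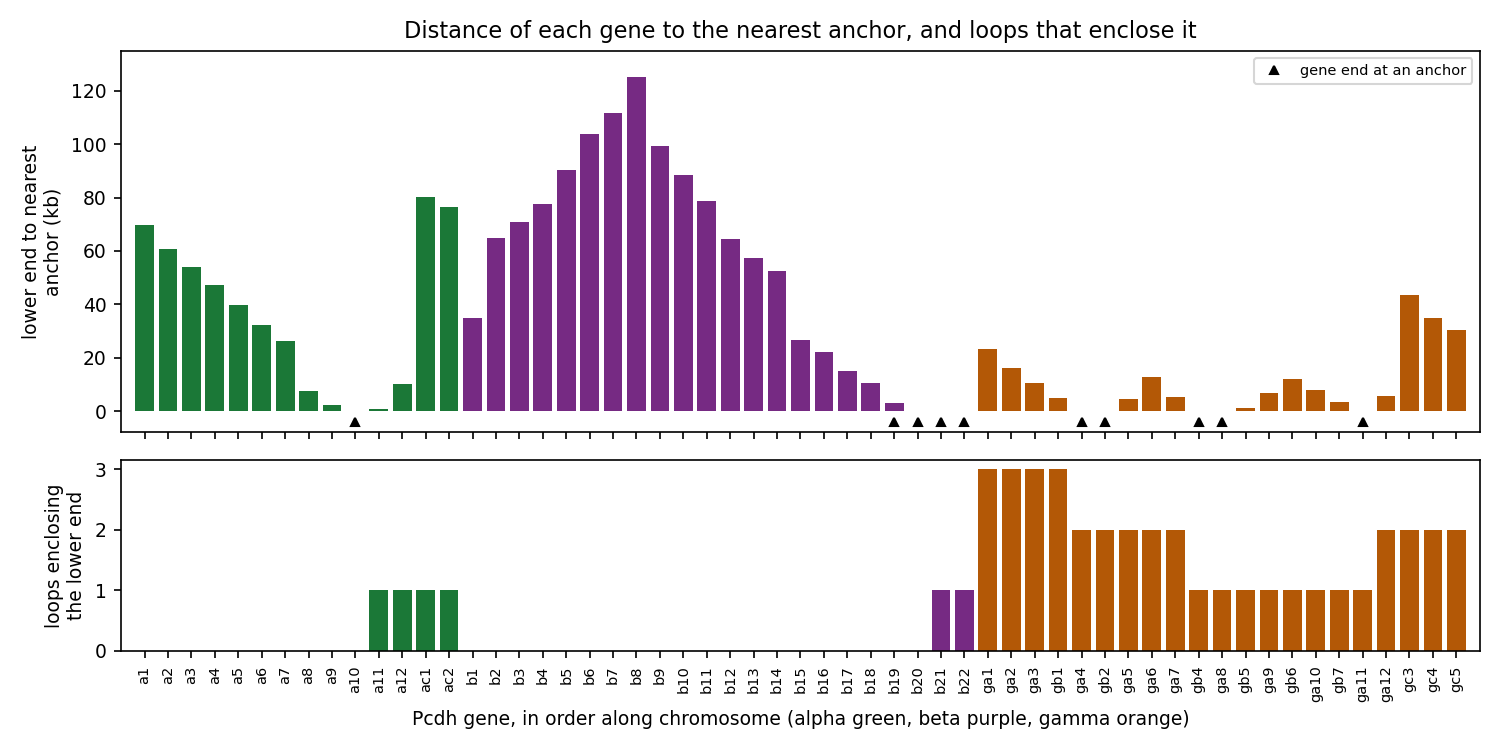
Distance in kb from the lower end of each of the 57 genes to the nearest loop anchor (upper panel, 1 bar per gene in order along the chromosome) and number of loops whose anchors enclose that end (lower panel). Triangles mark the 10 genes with an end at an anchor. Distances reach 125.3 kb in the middle of the beta cluster, and the gamma genes stay under 1 to 3 loops.

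Counted over the family, 10 of 57 members (17.5%) had an end at an anchor, against 9.04% of all protein-coding genes and 12.9% of the 511 on chromosome 18. The 511 include the 57 members. By cluster the counts were 1 of 14 in alpha (7.14%), 4 of 22 in beta (18.2%) and 5 of 21 in gamma (23.8%). Members share anchors, so these counts rest on 6 merged anchors, 1 in alpha, 2 in beta and 3 in gamma, and no interval over genes was drawn. With the lower end alone counted, 9 of 57 members (15.8%) were at an anchor, against 5.19% of all genes, and Pcdhb19 dropped out. When anchors were widened by 5 kb, 16 members (28.1%) were at an anchor, against 16.2% of all genes. The 6 added were Pcdha9, Pcdha11, Pcdhgb1, Pcdhga5, Pcdhgb5 and Pcdhgb7. Any overlap of the record gave 31 members (54.4%), against 17.7% of all genes and 29.5% of those on chromosome 18. Of these, 10 were alpha and 17 gamma genes, whose records reach over the later genes of the array to the constant exons, and 4 were beta genes, the same as by gene ends. The order of the clusters also changed, with alpha at 71.4% above beta at 18.2%. By pixel size, loops of 5 kb pixels alone gave 5 members with an end at an anchor (1.86% of all genes), loops of 10 kb pixels 7 members (5.59%) and loops of 25 kb pixels none (2.2%). All 10 members kept their anchors when loops below the median peak score for their pixel size were dropped, with 4.72% of all genes then at an anchor.

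**Figure D3:**
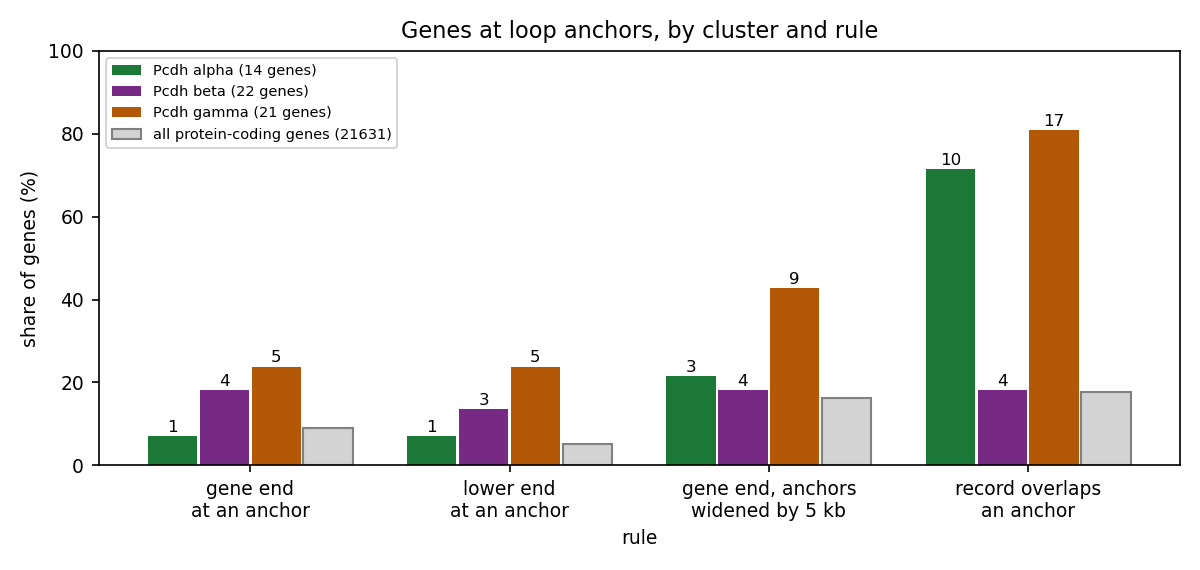
Share of genes (%) at loop anchors under 4 rules for the alpha, beta and gamma clusters (coloured bars, number of genes above each) and for all 21631 protein-coding genes (grey bars). Alpha goes from 1 gene by its ends to 10 by any overlap of the record, while beta has 4 genes under both rules.

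Each of the 5 loops of the clusters had a member end at its lower anchor, while 2 also had member ends at the higher anchor. These loops were counted for having an anchor inside a dense gene array, so a gene end at an anchor is largely given by that choice. Over all 8 loops of the window, 6 had a protein-coding gene end at the lower anchor, 3 at the higher anchor and 3 at both. In the whole list these shares were 19.1%, 19.7% and 5.38% of 4982 loops, and nothing is read from the difference, since gene ends in the arrays lie about as close together as an anchor is wide. The 2 loops with member ends at both anchors linked 8 genes, which were Pcdhb19, Pcdhb20, Pcdhb21 and Pcdhb22 on the beta side and Pcdhga4, Pcdhgb2, Pcdhgb4 and Pcdhga8 on the gamma side.

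Of the flanking loops, 2 ranked low in the list by peak score and 1 above its median. Below the alpha cluster, Ankhd1, which encodes an ankyrin repeat protein, and Tmco6 had ends at the anchors of a loop of 170 kb (36560001 to 36570000 and 36730001 to 36740000). Its peak score of 3.06 was at percentile 6.40 and its peak pixel of 4.53 at percentile 4.36. Its higher anchor lay 190.3 kb below Pcdha1. Above the gamma cluster, neighbouring anchors from 38000001 to 38010000 and from 38010001 to 38015000 held no protein-coding gene end. The first began 0.470 kb past Arap3, a regulator of small GTPases. From it a loop of 450 kb ran to 38450001 to 38460000 inside Ndfip1, an adaptor of ubiquitin ligases, with a peak score of 4.55 (percentile 71.3) and a peak pixel of 6.15 (percentile 34.7). From the second a loop of 205 kb ran to 38215001 to 38220000, which lay 2.95 kb from Pcdh1, a protocadherin outside the clusters. Its peak score was 3.59 (percentile 5.45) and its peak pixel 5.03 (percentile 54.0). For both loops above the gamma cluster, the peak pixel thus lay on the other side of the median from the peak score. Among the 188 loops of chromosome 18, the 5 loops of the clusters ranked 22, 24, 27, 44 and 108 by peak score, and the 3 flanking loops 76, 150 and 184.

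The loops of the clusters had a median peak score of 5.63 (range 4.12 to 5.78), the flanking loops one of 3.59 (3.06 to 4.55) and the whole list one of 4.16. Peak scores depend on pixel size, with list medians of 4.88 at 5 kb and 3.996 at 10 kb pixels. Within pixel sizes the 5 loops of the clusters were all above the median peak score, and 1 of 3 flanking loops was. The peak pixel gave a smaller contrast, with 3 of the 5 loops of the clusters and 1 of 3 flanking loops above its median. The caller's regional score gave another order. It was 3.28 for the Pcdhga11 loop (percentile 89.96), 2.86 for the Pcdha10 loop (93.0), 2.81 for the Pcdhb20 loop (92.0) and 2.53 for the loop from Pcdhb21 to Diaph1 (82.9). It was 2.38 for the loop from Pcdhb21 and Pcdhb22 to Pcdhga4 and Pcdhgb2 (41.7). Among the flanking loops it was 2.41 for the Ndfip1 loop (77.1), 2.15 for the loop near Pcdh1 (22.1) and 1.91 for the loop from Ankhd1 to Tmco6 (15.3). By this score the Ndfip1 loop thus stood above the lowest loop of the clusters. The median span was 220 kb for the loops of the clusters, 205 kb for the flanking loops and 325 kb for the whole list. Spans also depend on pixel size, with list medians of 190 kb at 5 kb, 330 kb at 10 kb and 650 kb at 25 kb pixels. For the loops of the clusters the medians were 147.5 kb at 5 kb (n = 2) and 220 kb at 10 kb pixels (n = 3). No loop of 25 kb pixels had an anchor in the window, against 670 of 4982 loops in the whole list. With 8 loops in the window, nothing is read from this.

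**Figure D4:**
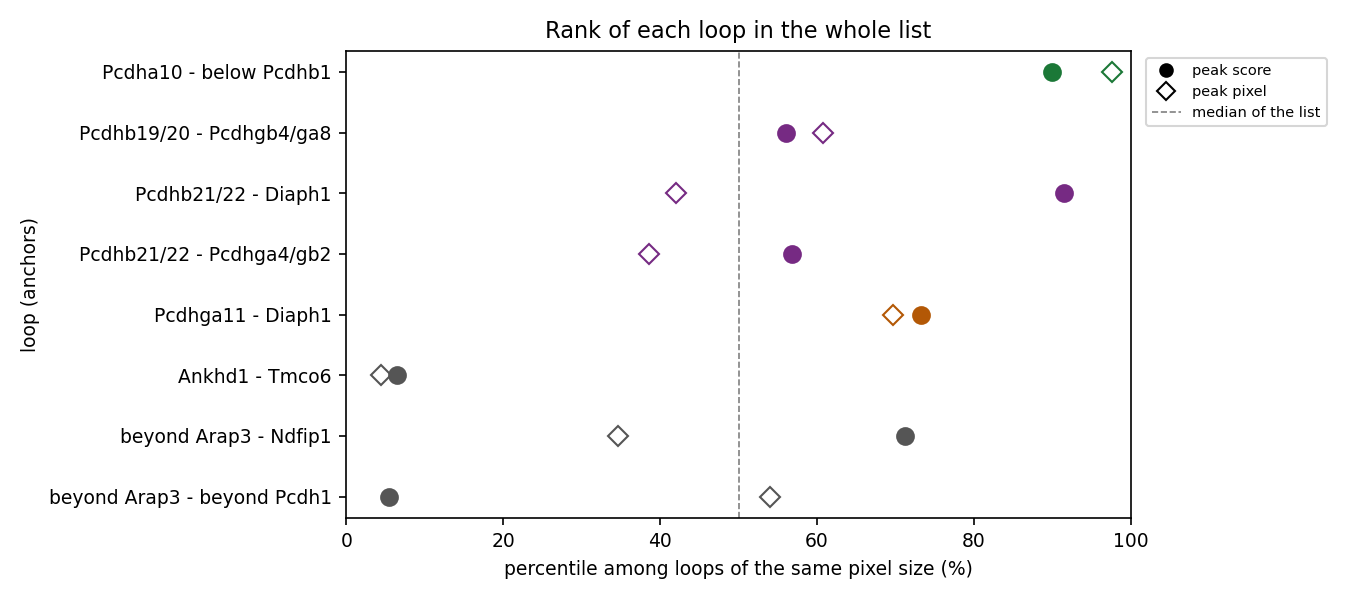
Percentile of each of the 8 loops among all loops of the same pixel size, for the peak score (filled circles) and the value of the peak pixel (open diamonds), with the loops of the clusters above the flanking loops. The dashed line is the median of the list. All 5 loops of the clusters lie right of it by peak score, and 2 of them lie left of it by peak pixel. Of the 3 flanking loops, 1 lies right of it by each measure, and not the same loop.

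The window of 1.4 Mb held 8 loops with an anchor in it. Windows of that length laid end to end over the autosomes had a median of 3 (quartiles 1 and 5, maximum 17, n = 1735). Those of chromosome 18 had a median of 3.5 (quartiles 1 and 5.75, maximum 10, n = 62). In the window, 10 of 57 members had an end at an anchor, and 1 of 19 other protein-coding genes, Tmco6. The 19 include 3 read-through records that run from the alpha to the gamma cluster. The share was 9.04% over all protein-coding genes and 12.9% over those of chromosome 18, and nothing is read from 1 of 19.

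The protocadherin share of 17.5% was set beside those of other tandem gene families as a description. Hox genes, which pattern the body axis, had ends at anchors in 10 of 39 cases (25.6%). Olfactory receptor genes on chromosome 7 had 2 of 239 (0.837%), and vomeronasal type 1 receptor genes, which detect pheromones, 4 of 230 (1.74%). By this rule the protocadherins lay between the Hox genes and the receptor families, but their order against the Hox genes depended on the rule. With anchors widened by 5 kb the shares were 28.1% of protocadherins and 48.7% of Hox genes. By the lower end they were 15.8% and 15.4%, and by any overlap of the record 54.4% and 28.2%. These differences were not tested. Neighbouring genes of the other families can share anchors too, and the number of anchors behind their counts is not given here.

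Of 12 protocadherins outside the clusters, 1 had an end at an anchor (8.33%, against 9.04% of all genes). This was Pcdh8, on chromosome 14, with a loop of 450 kb and a peak score of 3.96. Pcdh1, the neighbour of the clusters, was reached when anchors were widened by 5 kb, and Pcdh12 was not. A list of 20 genes was chosen as regulators of the clusters, such as Ctcf, the cohesin gene Rad21 and the chromatin repressor Smchd1. Their roles at the clusters were not examined here. Of these 20, 2 had an end at an anchor (10%, against the same 9.04%). These were Pds5a, which encodes a cohesin regulator, with a loop of 290 kb (peak score 3.55), and Tet3, an enzyme that oxidises methylated cytosine, with a loop of 145 kb (4.19). Both shares were near that of all genes.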

How the data were processed

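Micro-C data of 2 siControl samples were represented by 1 deposited loop list. The submitters' processing notes name the build mm10 and Juicer 1.5.6. Not given in the sources used here are the caller of the loops, its settings, how reads from near-identical genes were treated, and any pooling of samples. Column meanings were inferred from the values, as no header names them. The deposited peak score and regional score are scores of the authors' caller, the deposited signal of the peak pixel has an unstated normalization, and a deposited fraction resembling a probability was kept in the tables without being reported.

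Start positions were made 1-based. Span is the distance between anchor midpoints. Percentiles were taken within loops of the same pixel size. Anchors sharing at least 1 bp were merged. Genes came from a RefSeq table on assembly GRCm38.p6 (mm10), for chromosomes 1 to 19 and X. It gives no strand or exons. A gene end at an anchor means that the first or last base of the record lay inside it. A cluster runs from the lowest to the highest base of its records. Pcdhgb8, listed as a pseudogene, was left out. Overlap counting was tested on simulated data with 200 planted genes (Python 3.11.15, pandas 2.3.3, numpy 2.4.6). Named are all members with an end at an anchor, the nearest misses, and partner genes. Members and lists were chosen with earlier results of these data known. Neither loops nor genes are replicates, so no p-values were calculated.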

Additional observations from a re-analysis of the deposited data

How the results depend on the processing

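No paired analysis was possible because loops were deposited without values for each sample, which also prevented analyses that leave out a replicate. The window held 8 loops, and also 8 when widened by 100 kb and 6 when loops had to reach the median peak score for their pixel size. It held 5 over the extent of the protocadherin records alone, 3 at 5 kb pixels, 5 at 10 kb pixels and 0 at 25 kb pixels, which are fewer by construction. Placing anchors in clusters by midpoint, or after widening by 5 kb, left the count of loops from cluster to cluster at 2. Members with an end at an anchor numbered 10, and 31 by any overlap (17.7% of all genes), 16 with anchors widened by 5 kb (16.2%), 9 by the lower end (5.19%), 5 at 5 kb pixels (1.86%), 7 at 10 kb pixels (5.59%) and 0 at 25 kb pixels (2.2%). They numbered 10 with loops at or above the median peak score (4.72%). The median peak score of the 8 loops was 4.83. As a percentile within pixel size it was 64.0, and the median regional score was 2.47, on other scales. The median span of 212.5 kb was 170 kb at 5 kb pixels and 220 kb at 10 kb pixels. Merged anchors numbered 12, or 10 when merged within 10 kb, where the end of the beta cluster became 1 anchor with 3 loops. Gene ends within a pixel of an anchor's edge cannot be resolved, and without depth or replicate values a site with no listed loop is not shown to lack contacts.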

Other observations

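The gene table also lists 3 read-through records, Gm37013, Gm38666 and Gm38667, which start at Pcdha4, Pcdha6 and Pcdha7 and run to the end of the gamma cluster. None of the 3 had an end at an anchor, and no loop joined the alpha to the gamma cluster that these records connect. The microRNA gene Mir6979 lay within the anchor above the gamma cluster, inside Diaph1, that was joined to Pcdhb21 and Pcdhb22.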
